A study of Homo sapiens with 3 samples.

Results

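Dense clusters of histone H3 lysine 27 acetylation (H3K27ac) peaks were examined in the established human cell line H2087, derived from a lung adenocarcinoma. The clusters were chosen by the H3K27ac peak list itself. Its 24096 distinct peaks were joined when the gap between neighbours was at most 10 kb, and joined regions with at least 8 peaks were kept and ranked by length under peaks. This gave 315 dense clusters among 12180 regions and single peaks (2.59%). The other classes were 4291 joined regions of 2 to 7 peaks and 7574 single peaks. The number, spacing, width and significance of the H3K27ac peaks in the clusters are therefore descriptions of the selection. Peaks of H3 lysine 4 trimethylation (H3K4me3), gene positions and the DNA sequence were not used by the rule.

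ChIP-seq, in which chromatin fragments carrying a mark are precipitated with an antibody and sequenced, was performed by the study to find histone modification regions in lung adenocarcinoma cells. The H2087 cells were untreated and grown in RPMI medium with serum, and the labels describe 1 H3K27ac library, 1 H3K4me3 library and 1 input library, the last not analysed here. With 1 library per mark (n = 1) and no second line or condition, no value has a replicate and no test between groups was possible. Shares are given with 95% Clopper-Pearson intervals (exact), limited to counting error, in which adjacent peaks count as if they were independent. The peak lists hold no read counts, so the depth is unknown, and too few reads would leave a stretch without a peak just as a missing mark would.

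H3K27ac is found at active promoters and enhancers, and long stretches with many closely spaced H3K27ac peaks are often called stretch enhancers or super-enhancers when ranked by signal. Such stretches are known to lie near genes that give a cell type its identity. H3K4me3 is known mainly from the starts of active genes and is usually weak or absent at enhancers away from them.

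To show what the members consist of, the reference sequence under the H3K27ac peak with the highest −log10 q (the peak caller's measure of significance) outside exons is given for 4 long clusters, as 200 bases at the centre of the peak. All are on the plus strand of hg19 (GRCh37), written 5′ to 3′, and capitals mark matches to any of 11 short motifs searched on both strands. These motifs were AP-1 TGANTCA, forkhead TGTTTAC, TEAD CATTCC, NKX2 CACTTGA, E-box CACGTG, CEBP TTGCNNAA, GC box GGGCGGG, GRHL AACCNGTT, antioxidant response element TGACNNNGC, RUNX TGTGGT and ETS CCGGAAG. An AP-1 match and an antioxidant response element match can overlap, which occurred in 0.465% of the 300-bp windows at all H3K27ac peaks. A match is a description of the letters and not of a bound factor.
rank 3, long noncoding RNA gene ENSG00000245651, chr12:58283315-58283514: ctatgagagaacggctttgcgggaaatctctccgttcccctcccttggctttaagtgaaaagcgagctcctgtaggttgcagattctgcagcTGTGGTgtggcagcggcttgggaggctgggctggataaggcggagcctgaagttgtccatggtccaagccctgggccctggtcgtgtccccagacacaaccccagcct
rank 5, intron of ANAPC2, chr9:140073036-140073235: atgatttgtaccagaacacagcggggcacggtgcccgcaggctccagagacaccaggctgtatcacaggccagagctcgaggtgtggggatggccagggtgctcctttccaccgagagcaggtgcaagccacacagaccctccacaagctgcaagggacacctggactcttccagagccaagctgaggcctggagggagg
rank 6, intron of UQCC1, chr20:33892503-33892702: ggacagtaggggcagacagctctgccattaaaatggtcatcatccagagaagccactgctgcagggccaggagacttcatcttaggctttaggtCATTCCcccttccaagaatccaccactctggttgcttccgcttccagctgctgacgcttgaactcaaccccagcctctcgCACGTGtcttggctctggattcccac
rank 7, intron of GALNT6, chr12:51781593-51781792: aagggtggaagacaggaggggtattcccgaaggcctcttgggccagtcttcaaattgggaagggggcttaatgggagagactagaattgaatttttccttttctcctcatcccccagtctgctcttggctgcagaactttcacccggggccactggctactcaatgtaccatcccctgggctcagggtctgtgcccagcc
The peaks behind these windows had a −log10 q between 5.46 in ANAPC2 and 27.67 in the rank 3 cluster. Those in the rank 3 cluster and GALNT6 overlapped an H3K4me3 peak, and those in ANAPC2 and UQCC1 did not. None of the 4 windows held an AP-1 match.

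AP-1 matches were also looked for between the peaks. The first AP-1 match within 50 bp of the centre of a gap between neighbouring peaks, outside exons, is shown for the clusters at ranks 2 to 6 as 120 bases, again from the plus strand of hg19 with the AP-1 match in capitals. These gaps were 332 to 624 bp long, and they were examined after the peak windows had been seen.
rank 2, gap in KRT7, chr12:52637966-52638085: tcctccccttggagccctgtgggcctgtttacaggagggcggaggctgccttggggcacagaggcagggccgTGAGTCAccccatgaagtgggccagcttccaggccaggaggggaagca
rank 3, gap in ENSG00000245651, chr12:58275487-58275606: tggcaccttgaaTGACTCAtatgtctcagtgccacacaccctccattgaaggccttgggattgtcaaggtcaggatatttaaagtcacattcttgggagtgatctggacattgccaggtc
rank 4, gap in PARD3, chr10:35002921-35003040: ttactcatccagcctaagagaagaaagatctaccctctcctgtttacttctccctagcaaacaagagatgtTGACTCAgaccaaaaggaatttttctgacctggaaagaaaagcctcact
rank 5, gap outside protein-coding and long noncoding RNA genes, chr9:140119367-140119486: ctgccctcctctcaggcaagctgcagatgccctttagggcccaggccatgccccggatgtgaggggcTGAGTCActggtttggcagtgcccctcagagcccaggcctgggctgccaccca
rank 6, gap in UQCC1, chr20:33899395-33899514: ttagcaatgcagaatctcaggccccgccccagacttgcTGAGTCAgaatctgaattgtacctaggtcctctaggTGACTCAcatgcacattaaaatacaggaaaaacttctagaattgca
The gap in UQCC1 held 2 matches. The shares of gap and peak windows with such matches are given after the genes.

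The clusters covered little of their own span. The length under H3K27ac peaks per cluster had a median of 4.19 kb (interquartile range 3.08 to 5.75 kb) and ran from 2.04 to 36.3 kb, while the span had a median of 26.6 kb (20.3 to 35.4 kb). A median of 16.6% of the span lay under peaks, and neighbouring peaks were a median of 1.22 kb apart (0.528 to 3 kb). The number of peaks per cluster had a median of 10 and reached 63. The clusters held 3820 H3K27ac peaks, which was 15.9% of the list and 19.4% of its length. Length was spread over many clusters, since the first 3 held 4.68% of the length under peaks of all clusters, the first 20 held 17.8% and the first 50 held 33.7%. At the threshold, the 80 regions of 8 peaks had a median length under peaks of 2.87 kb (2.04 to 5.85 kb) and the 111 regions of 7 peaks just outside it 2.53 kb (1.72 to 4.15 kb).

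**Figure D1:**
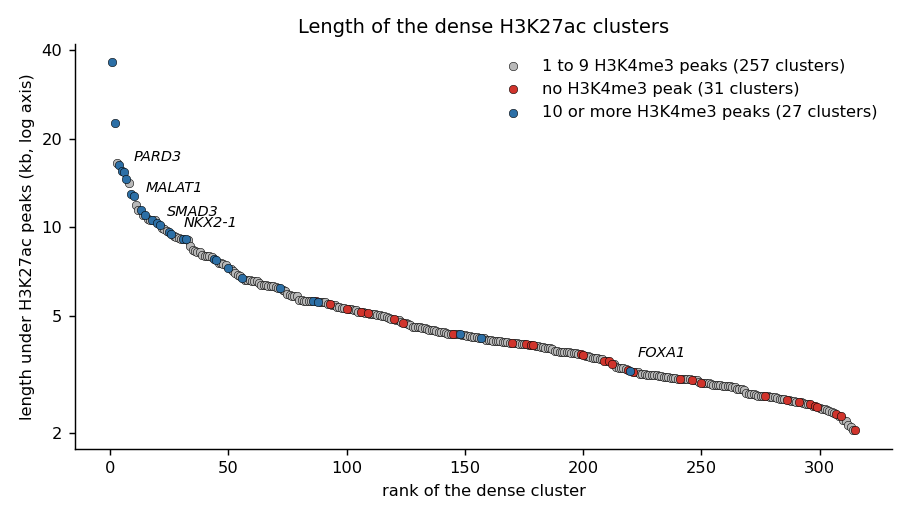
Length under H3K27ac peaks (kb, log axis) of the 315 dense clusters against their rank, with 1 point per cluster coloured by the number of H3K4me3 peaks inside. The 27 clusters with 10 or more H3K4me3 peaks lie from rank 1 to FOXA1 at rank 220, and the 31 clusters without an H3K4me3 peak begin at rank 87.

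H3K4me3 peaks were present in most clusters. Of the 315 clusters, 284 overlapped at least 1 H3K4me3 peak (90.2%, 86.3 to 93.2%), compared with 2358 of 4291 joined regions of 2 to 7 peaks (55.0%, 53.4 to 56.4%) and 23.9% of single peaks. The share in regions of 7 peaks was 80.2% (71.5 to 87.1%), whose interval met that of the clusters. Per 10 kb of span, however, the clusters held 1.43 H3K4me3 peaks against 1.56 in regions of 2 to 7 peaks. By this measure the clusters were not denser in H3K4me3 peaks than these shorter regions. Single peaks, whose span is the peak itself, held 7.92 per 10 kb, so the measure also moves with region size. The number per cluster had a median of 3 (2 to 6) and a maximum of 28, and 2 clusters held more H3K4me3 than H3K27ac peaks. These were the cluster at rank 56, with 22 H3K4me3 and 15 H3K27ac peaks, and the FOXA1 cluster with 10 and 9. The rank 56 cluster lay on chromosome 11 over 9 protein-coding gene starts, among them that of CD151.

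**Figure D2:**
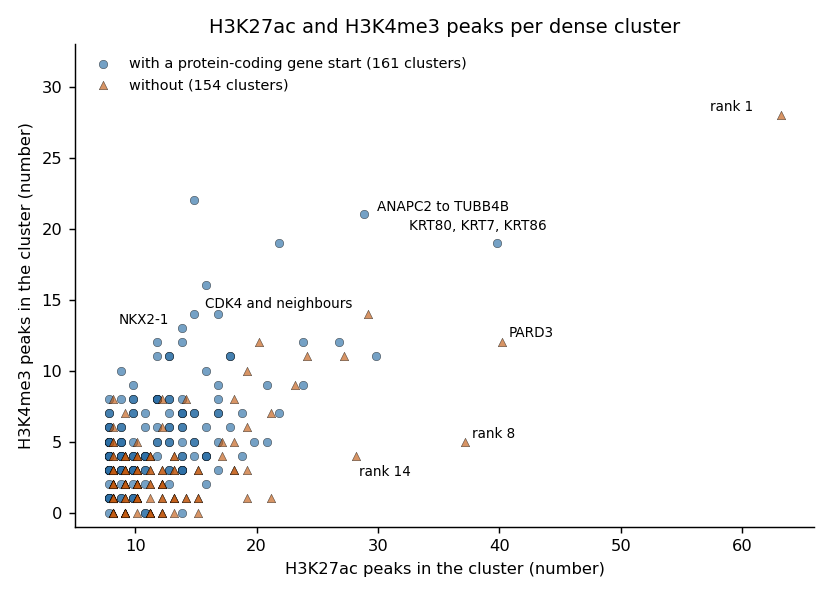
Number of H3K4me3 peaks against number of H3K27ac peaks in each dense cluster, with circles for clusters that contain a protein-coding gene start and triangles for those without, offset slightly sideways so that both can be seen. Clusters over gene starts such as the ANAPC2 to TUBB4B cluster (29 H3K27ac and 21 H3K4me3 peaks) lie high, and the clusters at rank 8 (37 and 5) and rank 14 (28 and 4) lie low.

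Counted peak by peak, the overlap with H3K4me3 in and outside clusters depended on the distance to gene starts. Of the 3820 peaks in clusters, 941 overlapped an H3K4me3 peak (24.6%, 23.3 to 26%), close to the 24.0% of the whole list and the 23.9% (23.3 to 24.5%) outside clusters. Cluster peaks lay less often within 3 kb of a protein-coding gene start, at 20.8% (19.5 to 22.1%) against 32.3% outside clusters. Farther than 1 kb from the start of any annotated transcript, 403 of 2577 cluster peaks overlapped H3K4me3 (15.6%, 14.3 to 17.1%), compared with 908 of 11948 peaks outside clusters (7.60%, 7.13 to 8.09%). This interval did not overlap that of the peaks outside clusters, and regions of 2 to 7 peaks (8.98%) and single peaks (5.22%) followed in that order. Within 1 kb of a protein-coding transcript start the shares were 48.2% in clusters and 51.5% outside.

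Peak width moved with this difference. Cluster peaks had a median width of 330 bp, against 288 bp in regions of 2 to 7 peaks and 265 bp for single peaks. Among far peaks under 250 bp, 8.77% overlapped H3K4me3 in clusters, 5.84% in regions of 2 to 7 peaks and 3.46% among single peaks. Among far peaks of 500 bp or more, the shares were 31.0%, 19.1% and 10.6%. The order was the same from 250 to under 350 bp (12.4%, 7.62% and 5.22%) and from 350 to under 500 bp (14.1%, 11.2% and 9.54%), where the intervals of clusters and regions of 2 to 7 peaks met in the latter. The difference among far peaks was also seen without chromosome 8 (15% against 7.53%), without the first 3 clusters (15.3% against 7.60%) and in clusters without a protein-coding gene start (13.9%).

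**Figure D3:**
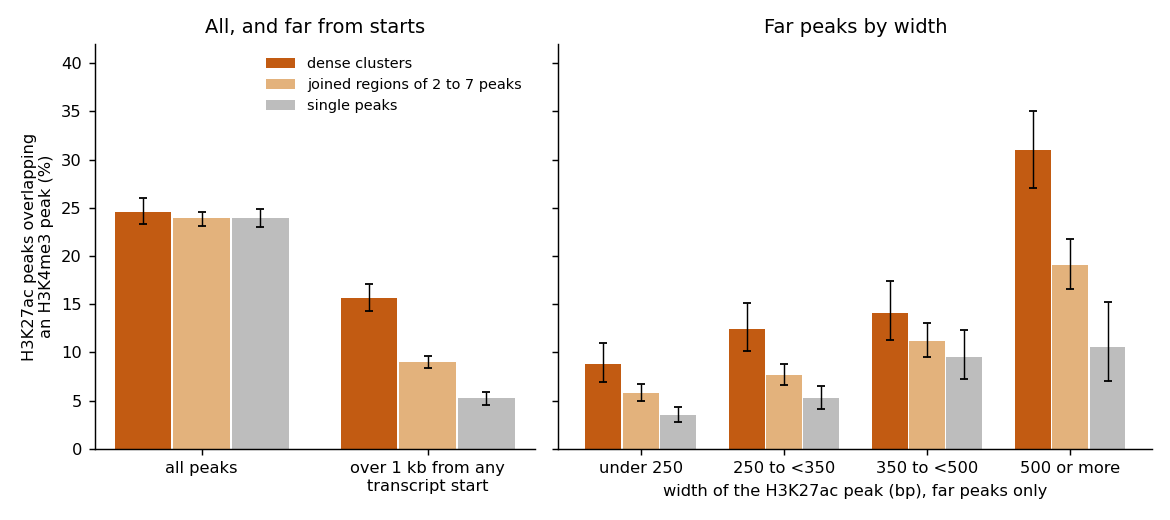
Percent of H3K27ac peaks that overlap an H3K4me3 peak, in dense clusters, regions of 2 to 7 peaks and single peaks, for all peaks and those farther than 1 kb from any transcript start (left) and for the far peaks by width (right). Error bars are exact 95% intervals for counting error. The 3 classes are level over all peaks at 24.6%, 23.9% and 23.9%, and separate among far peaks at 15.6%, 8.98% and 5.22%.

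Cluster peaks under both marks were less rich in CpG than such peaks elsewhere, and fewer cluster peaks lay near gene starts. Over all cluster peaks overlapping H3K4me3, the median GC content of the 300-bp window was 59.3% and the median ratio of observed to expected CpG 0.32, against 63.0% and 0.62 for such peaks outside clusters. The GC box, a motif of CpG-rich promoters, was matched in 14.9% of these cluster windows and 23% of those outside. In the 261 clusters with both kinds of H3K27ac peak, the widest peak overlapped H3K4me3 in 132 (50.6%) and the peak of highest −log10 q in 138 (52.9%), while 28.3% of all their peaks did so. A wider peak has more room for an overlap of 1 bp, and the part of width in these shares was not tested.

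Seen from the H3K4me3 list, 1345 of 18585 H3K4me3 peaks (7.24%) lay in clusters. Of these, 41.2% (38.5 to 43.9%) lay within 3 kb of a protein-coding gene start, against 61.7% (60.9 to 62.4%) of H3K4me3 peaks outside clusters. Their widths were alike, with medians of 326 bp in clusters and 303 bp outside. Of the cluster H3K4me3 peaks, 69.8% overlapped an H3K27ac peak, a share that the rule partly fixes.

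Below the first 3 clusters, the ranks 4 to 20 fell into clusters inside 1 gene, clusters over 1 or more gene starts, and clusters over noncoding genes only. Rank 1 (chr8:128839451-128961587) held 63 H3K27ac and 28 H3K4me3 peaks over the long noncoding RNA gene PVT1. Rank 2 (chr12:52580469-52682589) held 40 and 19 over the keratin genes KRT80, KRT7 and KRT86. Rank 3 (chr12:58253934-58298896) held 23 and 9 over 2 long noncoding RNA genes, with the gene start of ATP23 0.926 kb away.

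The cluster at rank 4 (chr10:34976346-35059595) lay wholly inside PARD3, which encodes a scaffold protein of epithelial cell polarity. It contained 40 H3K27ac peaks with 16.3 kb under peaks and 12 H3K4me3 peaks, and 9 of its H3K27ac peaks overlapped H3K4me3. The outer start of PARD3 was 44.7 kb away, so this H3K4me3 lay in the gene body. The cluster at rank 18 (chr15:67358551-67442447) had the same form inside SMAD3, a transducer of TGF-beta signals, with 29 H3K27ac peaks, 10.58 kb under peaks and 14 H3K4me3 peaks, 2.45 kb from the outer gene start. In all, 86 clusters lay wholly inside 1 protein-coding gene, among them BCL2L1, an inhibitor of apoptosis, PXN, which encodes the focal adhesion protein paxillin, and SLC2A1, a glucose transporter.

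Clusters over gene starts came next. Rank 5 (chr9:140072948-140136744) held 29 H3K27ac peaks, 15.56 kb under peaks and 21 H3K4me3 peaks over 11 protein-coding gene starts, the most of any cluster, from ANAPC2, a subunit of the anaphase-promoting complex, to TUBB4B, a beta-tubulin. Rank 6 (chr20:33863793-33918744) held 30 H3K27ac and 11 H3K4me3 peaks over 4 gene starts, among them EIF6, a factor of ribosome assembly, and FAM83C. Rank 7 (chr12:51748674-51789681) held 18 and 11 at GALNT6, an enzyme of mucin-type O-glycosylation, and SLC4A8, a bicarbonate transporter. At rank 7, 8 of the 18 H3K27ac peaks overlapped H3K4me3, against 7 of the 30 in rank 6.

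The next clusters of this kind were shorter. Rank 11 (chr12:58225424-58241861) was compact, with 9 peaks covering 72.6% of 16.4 kb over CTDSP2, a small phosphatase gene. Rank 12 (chr2:97523216-97573501) held 17 H3K27ac and 5 H3K4me3 peaks at ANKRD23, ANKRD39 and SEMA4C, the last a semaphorin. Rank 13 (chr1:156051980-156109403) held 24 and 12 at MEX3A and LMNA, which encodes the nuclear lamins A and C, and 12 of its 24 H3K27ac peaks overlapped H3K4me3. These clusters thus ranged from 0.994 H3K4me3 peaks per 10 kb at rank 12 to 3.04 at rank 11.

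Rank 15 (chr7:1543169-1610368) held 27 H3K27ac and 12 H3K4me3 peaks at INTS1, a subunit of the Integrator complex, MAFK, a small Maf factor that pairs with larger factors such as NRF2, and TMEM184A. Rank 16 (chr12:53439565-53474387) held 17 and 7 at TNS2, a focal adhesion protein, and SPRYD3. Rank 17 (chr8:127538388-127586495) held 21 and 5 at LRATD2. Per 10 kb of span, LRATD2 had the fewest H3K4me3 peaks of these clusters (1.04), below INTS1 and MAFK (1.79) and TNS2 (2.01). Rank 19 (chr20:62310048-62339262) held 16 and 4 at TNFRSF6B, a decoy receptor for FAS ligand, and ZGPAT. Rank 20 (chr11:118770545-118810863) held 17 and 14 at BCL9L, a coactivator of beta-catenin, and UPK2, a uroplakin.

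The remaining clusters among the ranks 4 to 20 overlapped no protein-coding gene. Rank 8 (chr8:129027775-129139364) held 37 H3K27ac and 5 H3K4me3 peaks and rank 10 (chr8:129163994-129197379) held 20 and 12, both over PVT1, with MYC, the growth-promoting transcription factor, as the nearest protein-coding start at 280.0 and 416.0 kb. Rank 9 (chr11:65236617-65277710) held 24 and 11 over MALAT1, an abundant nuclear long noncoding RNA. Rank 14 (chr6:43968630-44042163) held 28 and 4, with the nearest protein-coding start, that of TMEM63B, 52.5 kb away. The neighbours at ranks 8 and 10 differed in H3K4me3, with 0.448 and 3.59 peaks per 10 kb, although both lie in the same noncoding gene.

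**Figure D4:**
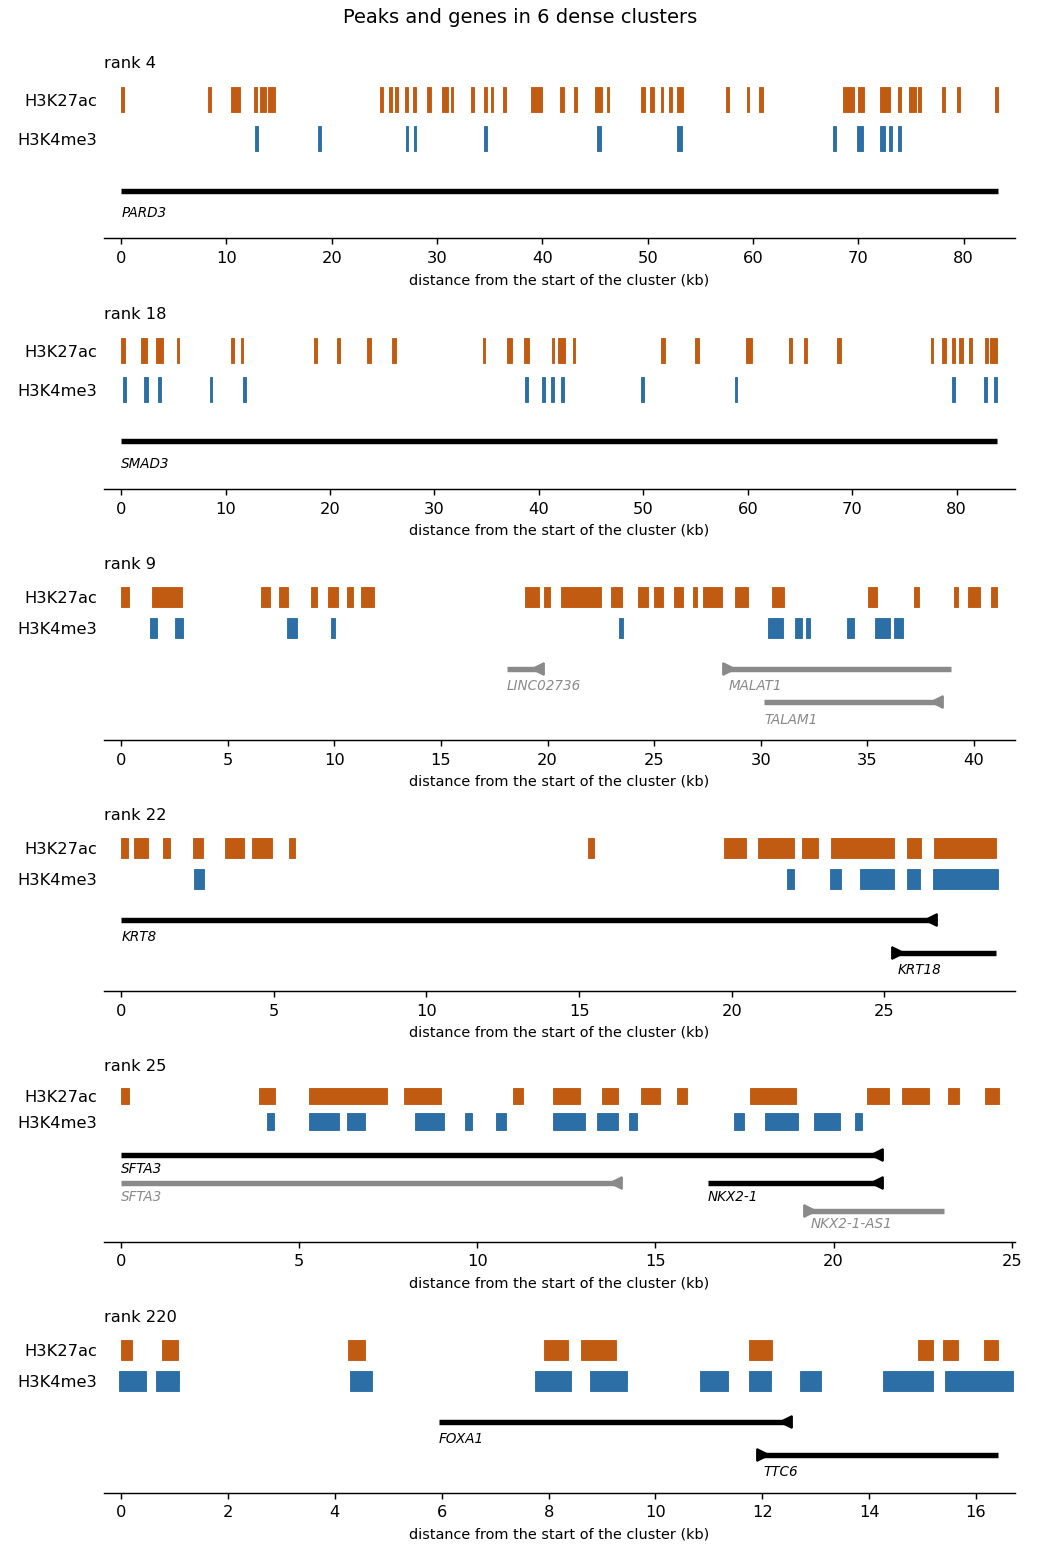
H3K27ac peaks (orange), H3K4me3 peaks (blue) and annotated genes (black, protein-coding; grey, long noncoding RNA; arrowheads at gene starts; genes without a symbol not drawn) in 6 dense clusters, against distance from the start of the cluster in kb. H3K4me3 peaks are scattered through the bodies of PARD3 (rank 4) and SMAD3 (rank 18), lie within MALAT1 and to its left (rank 9), gather where KRT8 and KRT18 start (rank 22), and accompany the H3K27ac peaks along NKX2-1 (rank 25) and FOXA1 (rank 220).

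Clusters at the extremes of H3K4me3 showed the range. In the FOXA1 cluster (rank 220, chr14:38052813-38069230) 9 of 9 H3K27ac peaks overlapped H3K4me3, at rank 80 (chr19:1016027-1040447, over TMEM259, CNN2 and ABCA7) 9 of 10, and at rank 45 (chr12:58131244-58187349, over CDK4 and 8 other gene starts) 13 of 15. FOXA1 is a pioneer factor of endoderm-derived epithelia and CDK4 a cell cycle kinase. At the other end, 53 clusters had no H3K27ac peak that overlapped H3K4me3. The lowest share above 0 was 1 of 21 peaks at rank 23 (chr8:126506775-126542276, 64.2 kb from TRIB1). Next came 1 of 19 at rank 61 (chr21:44897303-44942132) and 1 of 18 at rank 59 (chr2:43385914-43435434, 18.3 kb from ZFP36L2). The clusters at ranks 23, 61 and 59 overlapped no protein-coding gene.

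The 31 clusters without any H3K4me3 peak were of modest size, with at most 15 H3K27ac peaks and at most 5.60 kb under peaks, and 4 of them contained a protein-coding gene start. The longest were rank 87 (chr14:35822517-35843488) with 12 peaks 30.5 kb from NFKBIA, the gene of the NF-kB inhibitor alpha, rank 93 (chr12:3407883-3430559) with 11 peaks 60.0 kb from PRMT8, and rank 100 (chr12:123399798-123436805) with 12 peaks partly over ABCB9. A second cluster lay over NFKBIA itself (rank 260, chr14:35859743-35874478), and there 4 of 8 H3K27ac peaks overlapped H3K4me3. The cluster farthest from a protein-coding start, ahead of ranks 10 and 8, was rank 128 (chr12:58803351-58830898), 483.0 kb from LRIG3, whose 9 peaks included a −log10 q of 29.24 and which held 2 H3K4me3 peaks.

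Gene starts lay inside about as many clusters as not. A protein-coding gene start was contained in 161 of 315 clusters (51.1%, 45.4 to 56.8%) and in 29.6% of regions of 2 to 7 peaks. Regions of 7 peaks, just below the threshold, contained a start in 51.4% (41.7 to 61%), level with the clusters. Per 10 kb of span the clusters held 0.360 starts against 0.626 in regions of 2 to 7 peaks and 0.375 in single peaks. Counting the start of every protein-coding transcript raised the share to 70.2% of clusters. The 161 clusters with a gene start held a median of 5 H3K4me3 peaks (1.82 per 10 kb) and 32% of their H3K27ac peaks overlapped H3K4me3, while the 154 without held a median of 2 (0.983 per 10 kb) and 16.7%. H3K4me3 was still found in 127 of the clusters without a gene start. Of these 154 clusters, 97 overlapped a protein-coding gene and 57 none, and the latter lay a median of 52.4 kb (23.6 to 108 kb) from the nearest protein-coding start, 43 of them over a long noncoding RNA gene. Cluster peaks lay more often in introns of protein-coding genes (38.2% against 32.6% of peaks outside clusters) and over long noncoding RNA genes only (13.8% against 9.16%).

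Of 20163 protein-coding genes, 484 (2.40%) overlapped a cluster and 338 (1.68%) had their start in one. H3K4me3 lay within 1 kb of 252 of these 338 starts (74.6%, 69.6 to 79.1%), compared with 38.2% of all protein-coding starts. H3K27ac, which the rule used, lay within 1 kb of 82.5% of the 338 starts and of 4753 of all 20163 protein-coding starts. The sets compared thus differ in H3K27ac by selection. Starts with H3K27ac outside clusters were not compared.

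Genes of 16 lists covering lung and epithelial identity, signalling and other cell types were looked up in the clusters, and 31 of 278 overlapped one (11.2%). This stood beside the 2.40% of all protein-coding genes, but the lists were chosen with earlier results of these data known. They also hold genes chosen for this tissue, so the higher share may partly follow from the choice of lists. Gene length was not taken into account. The largest shares were those of the epithelial (35%), TGF-beta (33.3%) and AP-1 factor (30.8%) lists, which were not tested against each other. Of 20 simple epithelial keratins and junction proteins, 7 overlapped a cluster: KRT7 and KRT80 at rank 2, KRT8 at ranks 22 and 35, KRT18 at rank 22, KRT19 at rank 52, the E-cadherin gene CDH1 at rank 195 and the tight junction gene CLDN7 at rank 111. The KRT8 and KRT18 cluster (chr12:53317226-53345888), over the keratin pair of simple epithelia, held 14 H3K27ac and 6 H3K4me3 peaks. The second KRT8 cluster (chr12:53291161-53306339) held 12 and 8, and KRT19 (chr17:39651033-39702473) lay among 16 H3K27ac but 2 H3K4me3 peaks.

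Of 20 lung lineage factors and surfactant proteins, NKX2-1 and FOXA1 overlapped a cluster, while 8 of the 20 had H3K4me3 at their start, a share close to the 38.2% of all protein-coding starts. NKX2-1 is the lineage factor of alveolar and airway epithelium, and its cluster (rank 25, chr14:36969135-36993773) contained 14 H3K27ac peaks over 9.59 kb and 13 H3K4me3 peaks, or 5.28 per 10 kb. This was above the 1.43 per 10 kb of the clusters together and the 1.82 of those with a gene start, and below the 6.09 of the FOXA1 cluster. Such values were not particular to these factors, with 5.62 at rank 132 over ARRDC1 and 5.27 in the second KRT8 cluster (rank 35). No gene of the leukocyte list (14 genes), of the fibroblast and endothelial list (13 found) or of the squamous and neuroendocrine list (11) overlapped a cluster, and 2, 2 and 0 of these had H3K4me3 at their start. As 2.40% of all protein-coding genes overlapped a cluster, lists this short could hold none whatever their cell type. Keratin genes on none of the lists also had their start in a cluster, among them KRT13 and KRT15 (rank 52) and KRT78 and KRT79 (rank 60). The counts thus depend on which genes were listed.

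Among signalling genes, 5 of 15 TGF-beta response genes overlapped a cluster, namely SMAD3, TGFBI, SKI, LTBP3 and ZFP36L1. SKI, a repressor of SMAD signalling, carried clusters at rank 122 over its start (14 H3K27ac and 6 H3K4me3 peaks) and at rank 153 in its body (11 and 1). Of 13 AP-1 factors, 4 did so, with FOSL1 (rank 32, 16 and 16), MAFK, MAFG (rank 97) and JUNB (rank 253). MAFK, which can pair with NRF2, and MAFG were counted on this list and not on the NRF2 list. The counts of both lists depend on that placement. The FOSL1 cluster (chr11:65654428-65688520) had 10 of 16 H3K27ac peaks under H3K4me3 and covered 5 gene starts. Of 18 NF-kB targets and cytokines, 3 overlapped a cluster: NFKBIA, TNFAIP2 and TNIP1.

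Of 20 integrin, laminin and adhesion genes, 3 overlapped a cluster, with ITGA3 (rank 30, 24 H3K27ac and 9 H3K4me3 peaks), the tetraspanin gene CD151 and the plectin gene PLEC (rank 21, 22 and 19). Of 16 receptor tyrosine kinase and RAS pathway genes, EGFR alone did, at rank 240 (chr7:55176003-55202248) 89.3 kb into the gene, where 9 H3K27ac peaks and 2 H3K4me3 peaks did not touch. Of 21 MAPK feedback genes, IER2 and EPHA2 overlapped a cluster, and of 16 cell cycle and MYC genes CDK4 and E2F1. Of 18 KLF, SOX and nuclear receptor genes RXRA alone did, in a cluster of 11 peaks without H3K4me3, and of 31 ribosomal protein genes of the small subunit RPS16 alone. No gene of the YAP and TEAD list (17) or of the NRF2 list (15) overlapped a cluster, and 11 and 6 of them had H3K4me3 at their start, the latter again close to the share of all protein-coding starts. Beside the 2.40% of all protein-coding genes over a cluster, lists this short could hold none.

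Several clusters held microRNA genes or a HOX cluster. The cluster at rank 26 (chr11:122008270-122072394) covered MIR100 and MIRLET7A2 inside their host gene with 27 H3K27ac and 11 H3K4me3 peaks. Rank 164 (chr1:9211830-9243157) covered MIR34A, a target of p53, with 10 and 4. Rank 169 (chr7:27188040-27225999) lay over the HOXA genes and MIR196B with 7 protein-coding starts, 10 H3K27ac peaks and 1 H3K4me3 peak, the fewest H3K4me3 peaks among the 14 clusters with 5 or more gene starts.

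Clusters were unevenly placed. Of the H3K27ac peaks of chromosome 8, 32.4% (29.8 to 35.1%) lay in clusters, followed by chromosome 11 (25.7%), chromosome 20 (24.2%) and chromosome 12 (22.4%), while none of 384 peaks on chromosome 4, 182 on chromosome 13, 82 on chromosome 18 and 33 on chromosome X did. By the exact interval, these allow shares of up to 0.956%, 2.01%, 4.40% and 10.6%. Of the 315 clusters, 100 lay within 100 kb of another, in 42 runs, and the longest run (chr8:128801149-129197379) joined 5 clusters with 147 peaks. Another run of 4 (chr12:53227411-53474387) included the KRT8, KRT18 and TNS2 clusters.

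Significance differed by place, and chromosomes 8 and 12, where the differences were largest, are given in full. Over all chromosomes the median −log10 q was 2.85 for H3K27ac peaks in clusters and 2.65 for the whole list. On chromosome 5 it was 2.82 in clusters and 2.80 elsewhere, and on chromosome 21 it was lower in clusters (2.48 against 2.63). On chromosome 12 the median −log10 q of H3K27ac peaks was 3.40 in clusters and 2.65 elsewhere, and that of H3K4me3 peaks was 4.20 and 3.06. On chromosome 8 the values were 3.36 and 2.56 for H3K27ac but 2.93 and 2.97 for H3K4me3. The −log10 q grows with local copy number as well as with enrichment, no copy number was measured in these files, and its part in the ranking was not tested.

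Motif shares at the peaks themselves were close in and outside clusters for most motifs named here. In 300-bp windows centred on the peak, AP-1 was matched in 5.52% of cluster peaks (4.82 to 6.30%), in 4.94% (4.64 to 5.24%) of peaks outside clusters and in 5.03% of the whole list. The matches were spread thinly, since 149 clusters had at least 1 such window and none had more than 5. Over whole peaks, which were wider in clusters, AP-1 was matched in 7.30% (6.50 to 8.17%) in clusters and 5.12% (4.82 to 5.43%) outside. Over all peaks the GC box was matched less often in cluster windows, at 9.11% (8.22 to 10.1%) against 10.9% (10.5 to 11.4%). Within 1 kb of any transcript start the GC box shares were 15.4% in clusters and 19.9% outside. Farther away the order was turned, at 6.09% (5.20 to 7.09%) in clusters and 4.70% (4.33 to 5.10%) outside. Forkhead, TEAD, NKX2 and E-box matches were found in 2.04%, 13.8%, 7.93% and 5.13% of cluster windows and in 1.68%, 13.4%, 8.11% and 5.05% of those outside, with overlapping intervals for each. Among peaks overlapping H3K4me3, AP-1 was matched in 4.99% (3.69 to 6.59%) in clusters and 3.05% (2.59 to 3.58%) outside, and among peaks within 1 kb of any transcript start in 5.79% (4.56 to 7.24%) and 3.58% (3.19 to 4%). In these subsets the intervals did not overlap. Regions of 2 to 7 peaks lay between clusters and single peaks, at 3.39% (2.78 to 4.10%) against 2.48% for single peaks overlapping H3K4me3. Near starts the shares were 3.79% (3.29 to 4.35%) and 3.23%. The interval of clusters met that of regions of 2 to 7 peaks among peaks overlapping H3K4me3. The part of base composition in these shares was not tested. Among peaks without H3K4me3 the AP-1 shares were 5.70% in clusters and 5.53% outside. Farther than 1 kb from any transcript start they were 5.39% (4.55 to 6.34%) and 5.88% (5.47 to 6.32%). For the peaks without H3K4me3 and the far peaks the intervals overlapped.

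Windows centred on the gaps gave another result. In gaps of 100 to 1000 bp between neighbouring H3K27ac peaks, 256 of 1533 cluster windows of 300 bp matched AP-1 (16.7%, 14.9 to 18.7%), and 452 of 2949 outside clusters did (15.3%, 14 to 16.7%). As a background, windows placed every 100 kb along the genome matched in 9.29% (8.96 to 9.64%), at a median GC content of 40% against 53.3% in the cluster gaps and 56.3% at the cluster peaks. AP-1 letters were thus more frequent in gaps and less frequent at peaks than in the spaced windows, inside and outside clusters alike. E-box letters, in contrast, were matched in 2.69% of the spaced windows. The part of GC content in these shares was not tested. A window in a short gap reaches into the flanking peaks. Of the 306 clusters with such a gap, 159 had at least 1 AP-1 gap window, and the most was 8, in the rank 1 cluster, while the rank 3 cluster had 6 of 16 and those of MALAT1 and LMNA 5 of 15 and 5 of 14.

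By distance, AP-1 matches peaked at the gap centre. In clusters there were 73.7 matches per 1000 windows in the 100 bp before the gap centre and 70.5 in the 100 bp after it, falling to 17.0 and 29.4 between 300 and 400 bp away. Around peak centres the order was turned, with 17.5 and 20.2 matches per 1000 windows next to the centre and 44 and 46.3 between 300 and 400 bp away. Farther than 1 kb from any transcript start, 18.7% of cluster gap windows and 21.6% of other gap windows matched AP-1. Forkhead matches were also more frequent in cluster gaps (4.17%, 3.23 to 5.30%) than at cluster peaks (2.04%), whereas E-box matches (4.24%, 3.29 to 5.37%, against 5.13%) were not. GC box (11.7% against 9.11%) and ETS (3.52% against 2.15%) matches were more frequent in cluster gaps too. Outside clusters, forkhead (3.59% against 1.68%) and E-box matches (6.44%, 5.58 to 7.39%, against 5.05%) were both more frequent in gaps than at peaks.

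**Figure D5:**
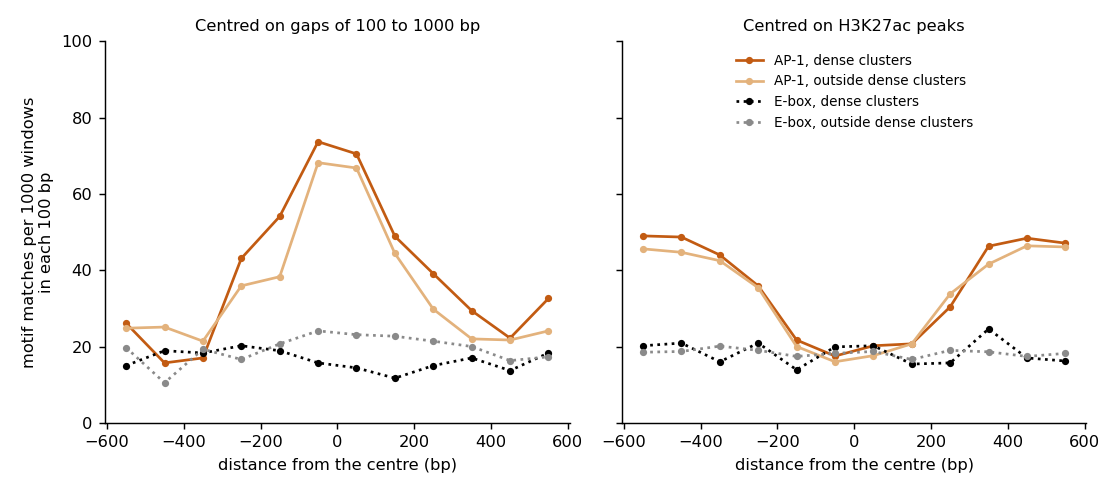
Motif matches per 1000 windows in each 100 bp, against distance in bp from the centre of gaps of 100 to 1000 bp between neighbouring H3K27ac peaks (left) and from the centre of H3K27ac peaks (right), for AP-1 (solid) and E-box (dotted) in and outside dense clusters. AP-1 in clusters reaches 73.7 beside the gap centre and drops to 17.5 beside the peak centre, AP-1 outside clusters shows the same rise (68.2) and drop (16), and E-box stays at 24.1 or below in the gap panel, with fewer matches in clusters than outside beside the gap centre.

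The assembly sets a limit on some members. Multi-copy peaks were those in which more than 50% of the 32-base words read at steps of 20 bases had further copies in the assembly. They made up 9.82% (8.89 to 10.8%) of cluster peaks, 12.3% of peaks in regions of 2 to 7 and 14.7% of single peaks. At least 1 such peak lay in 178 clusters and they made up at least 50% in 7. When they were left out of the counts, 269 of the 315 clusters kept 8 or more peaks. Joining the remaining peaks anew by the same rule gave 258 clusters.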

How the data were processed

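Per the submitters' processing notes, the reads were handled with bcl2fastq 1.8.4, Bowtie 1.1.1, SAMtools 1.2, Picard 1.118 and MACS2 2.1.0, genes were assigned with ChIPseeker 1.6.6, and the build was hg19 (GRCh37). Each peak list was deposited per library with a last column that has no header, read from its values as the −log10 q given by the authors' peak caller. The smallest values correspond to a q of 0.0497 (H3K27ac) and 0.0494 (H3K4me3). The stated threshold, duplicate handling and use of the input in peak calling are not given in the sources used here. Intervals listed once per summit were counted once, with their highest value. Overlap meant at least 1 bp. Gene and transcript starts came from GENCODE 44 on GRCh37, and sequences from the GRCh37 assembly. Scripts used Python 3.11.15, pandas 2.3.3, SciPy 1.17.1 and pysam 0.24.0 and were tested on simulated peaks.

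The members and gene lists were chosen with earlier results of these data known. Named clusters were ranks 1 to 20, the 3 longest without H3K4me3, the 3 in which the share of peaks overlapping H3K4me3 was highest, the 3 in which it was lowest but above 0, the 3 farthest from a protein-coding start, and those over a listed gene. The clusters named with microRNA or HOXA genes, at rank 56 and in the AP-1 gap counts, the chromosomes named for their −log10 q, the genes named for clusters inside 1 gene, and all gap windows, spaced windows and settings for far peaks were chosen after their values were seen. So were the clusters named with keratin genes on none of the lists, or set beside NKX2-1 for their H3K4me3 peaks per 10 kb. RefSeq promoter and microRNA tables on another build were not used here. Sequences of 2 peak windows chosen by the rule are not reported here.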

Additional observations from a re-analysis of the deposited data

How the results depend on the processing

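Of 41 values recomputed under alternatives, 15 stayed within tolerance (a factor of 1.5 for counts, the exact 95% interval for shares). Joining within 5 kb gave 180 clusters with 8.11% of H3K27ac peaks, 40% of them with a protein-coding gene start, and joining over a wider distance, the larger of those tried, 19.3% of peaks. Requiring 10 peaks gave 190 clusters and 11.5% of peaks. Only H3K27ac peaks at or above the median −log10 q gave 93 clusters with 8.11% of those peaks, 33.9% of cluster peaks overlapping H3K4me3 and 95.7% of clusters with H3K4me3. Leaving out peaks within 2.5 kb of a gene start gave 14.7% of peaks in clusters, 17.7% overlapping H3K4me3, 84.5% of clusters with H3K4me3 and 16% with a gene start. Merging peaks within 1 kb before counting left 120 clusters. The share of cluster peaks overlapping H3K4me3 was 16.3% when 50% of the peak had to be covered and 14.8% with H3K4me3 peaks at or above the median, which left 77.5% of clusters with H3K4me3. All annotated genes gave a start in 72.7% of clusters. AP-1 was matched in 3.61% of 200-bp windows and 7.30% of whole peaks. Of the first 20 clusters, 10 were also first by span, 13 by number of peaks and 14 by summed −log10 q.

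Alternatives chosen after seeing the data gave 70.2% of clusters with a protein-coding transcript start, 26.9% of cluster peaks overlapping H3K4me3 without multi-copy peaks (258 clusters), and 16.7% of gap windows with AP-1. Among far peaks, clusters stayed above the rest with only H3K4me3 peaks at or above the median (7.53% against 3.62%), with 50% covered (9.27% against 5.07%) and without multi-copy peaks (16.9% against 7.72%).

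The causes of these changes were not tested. No paired analysis was possible because the marks had a single library each and no result came from a test. Peak lists give no depth, so weak peaks, cluster membership and missing H3K4me3 cannot be set against the number of reads. The weakest peaks listed, at 1.303 for H3K27ac and 1.306 for H3K4me3, correspond to a q of 0.0497 and 0.0494.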

Other observations

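The antioxidant response element letters were matched in 14.7% (12.9 to 16.5%) of the cluster gap windows, TEAD in 16.5% and CEBP in 11.5%, against 13.0% (12 to 14.1%), 13.8% and 8.93% at cluster peaks. Outside clusters the gap shares were 13.8%, 16.3% and 9.94%. For NKX2 the cluster shares were 5.48% (4.39 to 6.74%) in gaps and 7.93% (7.09 to 8.83%) at peaks.

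Some neighbouring clusters differed in mark. On chromosome 14, a run of 3 clusters over 74.3 kb held the NFKBIA cluster, with H3K4me3 on 4 of 8 H3K27ac peaks, and the rank 87 cluster beside it, with H3K4me3 on 0 of 12. On chromosome 12, a run of 3 clusters over 168 kb held the CDK4 cluster, with H3K4me3 on 13 of 15 H3K27ac peaks, the CTDSP2 cluster with 5 of 9 and the rank 3 cluster with 5 of 23.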
